A study of Mus musculus with 3264 samples.

Results

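Mononuclear blood cells (PBMC) from C57BL/6J mice were imaged over time and then placed singly in 8 plates of 96 wells by ALPS, the isolation method named in the labels, and their RNA was counted per gene with molecular barcodes. The labels give no treatment, age, sex or animal for these wells, so the PBMC wells count as 1 sample and each class of wells below has no replicate. The T cells described here were chosen by their own counts: they are the wells with at least 300 detected genes and counts in at least 2 of 7 T cell genes (Cd3d, Cd3e, Cd3g, Trac, Trbc2, Lat, Lck) that held no count of Cd79a, Cd79b, Cxcr6, Rora, Cd8a or Cd8b1. There were 85 such wells, which is 25.1% of the PBMC wells that passed on detected genes (exact 95% binomial interval 20.5 to 30.04). This interval covers counting error only and leaves out the spread between plates. The other passing wells were 32 T wells with CD8, 59 T wells with Cxcr6 or Rora, 4 wells with both T genes and Cd79a or Cd79b, and, as non-T wells, 90 with Cd79a or Cd79b and 69 without, and a further 7 listed wells did not pass.

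T cells carry the antigen receptor and its CD3 chains on their surface, and divide into CD4 helper and CD8 cytotoxic lineages. T cells that have not met antigen circulate between blood and lymph nodes. They are known for the transcription factors TCF1 (encoded by Tcf7) and LEF1, for the interleukin 7 receptor that keeps them alive, and for KLF2 with its targets, the homing receptors that let cells enter and leave lymph nodes. Cxcr6 and Rora, which the rule excluded, mark activated, memory or innate-like T cells, and Cd79a and Cd79b encode the signalling chains of the B cell receptor.

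The sequences upstream of 4 genes whose summed levels were higher in these T cells than in non-T wells are shown first, to give the genomic context of those transcripts. Lef1 and Klf2 encode transcription factors, Il7r the interleukin 7 receptor alpha chain, and Actn1 an actin crosslinker. Each line gives the 250 bases before the most upstream start listed by RefSeq on build GRCm38.p6, 5′ to 3′ on the gene's strand, with CACCC, the core of sites bound by KLF family factors, in capitals on either strand (GGGTG on the other).
Lef1 chr3:131110047-131110296 (+ strand): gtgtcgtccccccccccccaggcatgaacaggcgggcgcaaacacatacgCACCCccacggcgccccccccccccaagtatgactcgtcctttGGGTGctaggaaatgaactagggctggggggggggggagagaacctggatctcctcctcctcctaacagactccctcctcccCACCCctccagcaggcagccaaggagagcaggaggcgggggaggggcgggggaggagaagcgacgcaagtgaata
Klf2 chr8:72318812-72319061 (+ strand): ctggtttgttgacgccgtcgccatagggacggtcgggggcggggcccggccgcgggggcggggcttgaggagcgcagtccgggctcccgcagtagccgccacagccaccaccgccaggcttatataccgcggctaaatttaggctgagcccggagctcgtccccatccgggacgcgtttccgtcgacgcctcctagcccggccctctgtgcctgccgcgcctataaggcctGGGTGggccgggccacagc
Il7r chr15:9529877-9530126 (- strand): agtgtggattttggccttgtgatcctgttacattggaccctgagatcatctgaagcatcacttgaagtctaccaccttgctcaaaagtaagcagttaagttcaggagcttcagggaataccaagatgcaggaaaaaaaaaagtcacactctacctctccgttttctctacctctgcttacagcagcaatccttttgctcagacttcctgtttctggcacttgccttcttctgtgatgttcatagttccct
Actn1 chr12:80260364-80260613 (- strand): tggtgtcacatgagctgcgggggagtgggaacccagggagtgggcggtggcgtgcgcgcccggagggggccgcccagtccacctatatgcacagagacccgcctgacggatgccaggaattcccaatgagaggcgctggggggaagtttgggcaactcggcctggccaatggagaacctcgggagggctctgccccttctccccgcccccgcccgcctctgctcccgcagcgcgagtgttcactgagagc
CACCC occurred 3 times in the window of Lef1, 1 time in that of Klf2 and 0 times in those of Il7r and Actn1, and 52.01% of all 32851 listed windows of this length held it. The letters CTTTGNT (TCF and LEF factors), CCGGAA (ETS factors) and TGTGGT (RUNX factors), searched on both strands, occurred in none of the 4 windows, and in 15.98%, 12.03% and 14.05% of all windows. The gene spans printed further on are GENCODE's, whose starts differ from RefSeq's: the Il7r window lies within the GENCODE span of the gene, and the match in the Klf2 window lies past the GENCODE start, so neither is upstream of that start. A match describes the letters only, and no match says only that they are not in these windows.

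The rule used the counts of the same wells, so every difference below describes these wells and none is a test. Values were summed over the wells of a class and given as CPM (counts per 1e+06 counts of the class). Ratios have exact 95% intervals that cover counting error only, treat each count as independent, and leave out the variation between wells. A gene entered a comparison with at least 100 CPM in 1 of the classes and 20 counts over both, and the 13 genes of the rule were left out. The labels number the plates and do not say in what else the plates differ. A range over plates uses plates with at least 5 wells of both classes (6 plates against non-T wells, 3 against each other T class).

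The T cell genes were found unevenly over the wells. Of the genes in the rule, Trbc2 was counted in 72 of the 85 wells, Lat in 58, Lck in 46, Trac in 40, Cd3d in 37, Cd3e in 24 and Cd3g in 9. Of the markers given with the rule but not used in it, Tcf7 was counted in 82.4% of the wells (72.6 to 89.8) and Actn1 in 81.2% (71.2 to 88.8). These shares describe the wells and are no test of the rule. Among the 24 wells that held exactly 2 of the 7 T genes, Tcf7 was counted in 62.5% and Actn1 in 66.7%, against 90.2% and 86.9% of the 61 wells with 3 or more. Just outside that threshold, the 36 wells with 1 T gene held Tcf7 in 38.9% and Actn1 in 25%. All 85 wells held over 500 detected genes, so none lay near the limit of 300, and the 7 wells that did not pass held fewer than 300.

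The absence of a CD8 count is a weaker sign than its presence at this depth. The 32 T wells with Cd8a or Cd8b1 and without Cxcr6 or Rora held a median of 2 CD8 counts, and 11 of them held only 1. Thinned to 1500 counts a well, 5 of 31 such wells (16.1%, 5.45 to 33.7) had no CD8 count left. These wells were chosen for a CD8 count at full depth, so this share leaves out CD8 cells that already had none. The 85 wells held a median of 2147 counts, up to 6755, with 8 of them under 1500, the CD8 wells 2836, the 59 T wells with Cxcr6 or Rora 2842 and the non-T wells 1854. How many of the 85 are CD8 cells without a captured CD8 molecule was not tested.

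The wells were spread unevenly over the 8 plates, from 1 of 30 passing wells on plate 2 (3.33%) to 16 of 37 on plate 4 (43.2%). On plates 1 to 8 they numbered 4, 1, 16, 16, 8, 12, 14 and 14. The T wells with Cxcr6 or Rora numbered 10 and 8 on plates 1 and 2, where the members were few. A majority of the T wells were members on plates 3, 4, 5 and 6 (57.1 to 66.7% of T wells), and a minority on plates 1, 2, 7 and 8 (8.33 to 46.7%).

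Against the non-T wells, the T cells without CD8, Cxcr6 or Rora held more transcript of resting T cell factors, of the interleukin 7 and interleukin 6 receptors and of T cell receptor signalling genes, and none of the B cell genes Cd74 and Ms4a1. The non-T wells are mixed: 90 of them held Cd79a or Cd79b. Of 1777 genes compared, 10.2% were at least 2-fold higher in the T cells and 14.6% at least 2-fold lower, 5.01% and 6.75% also in the same direction on each of the 6 plates, and the median log2 difference was 0.03. The rule used this contrast, so nothing is read from the counts of list members beside these shares.

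Of the 24 resting and recirculation genes, 17 entered the comparison, 11 were at least 2-fold higher and 1, Bach2, at least 2-fold lower, with a median log2 difference of 1.25. Tcf7 (chr11:52252371-52283014), whose product TCF1 maintains T cell identity, ran from 0 to 10 counts a well with a median of 3, and 33 wells held 4 or more. In the non-T wells its median was 0 and its highest count 6. Its summed level was 1363.3 CPM against 205.6 CPM, a ratio of 6.63 (5.05 to 8.81), and the plates did not overlap (934.3 to 1973 CPM against 136.7 to 416.9 CPM). It was counted in 2.22% of the 90 Cd79 wells, which should lack it (median depth 1859 counts). The size of these ratios moved with the comparator, which held 36 wells with 1 T gene. Against the non-T wells with none of the 7 T genes, the log2 difference was 3.94 in place of 2.72 for Tcf7, 4.52 in place of 3.08 for Actn1, 4.77 in place of 2.98 for Il7r and 3.86 in place of 2.83 for Lef1. Against the Cd79 wells alone it was 6.27 for Tcf7, 6.53 for Actn1, 7.42 for Il7r and 5.12 for Lef1.

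Lef1 (chr3:131110471-131224356), the partner factor of TCF1, ran from 0 to 4 counts with a median of 1 and was counted in 56.5% of the wells. Its level was 421.1 CPM against 58.3 CPM, a ratio of 7.22 (4.34 to 12.6), and the plates did not overlap (320.2 to 552.9 CPM against 0 to 136.5 CPM). Both partner factors were high in the same class, although Lef1 was missed in 37 wells and Tcf7 in 15. Of the 70 wells with Tcf7, 60% held Lef1, and of the 15 without it 40%. Among the 10 wells without Tcf7 that held no NK cell markers (described further on), 50% held Lef1.

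Actn1 (chr12:80167547-80260371), which encodes alpha-actinin 1, an actin crosslinker, ran from 0 to 7 counts a well with a median of 2. It stood at 1121.2 CPM against 131.98 CPM, a ratio of 8.50 (6.10 to 12.1). The plates kept apart, with 832.6 to 1833 CPM in the T cells and 37.9 to 728.2 CPM in the non-T wells, where plate 4 was the highest. Actn1 and Tcf7 were counted together in 64 wells, and Actn1 was found in 91.4% of the wells with Tcf7 and 33.3% of those without. Of the 15 wells without Tcf7, 5 held NK cell markers and no Actn1 (described further on), and among the other 10 Actn1 was found in 50%. The wells without Tcf7 had fewer counts (median 1880 against 2187), and the part of depth in this was not tested. Rflnb, which encodes a binding partner of filamin, another actin crosslinker, stood at 800.1 CPM against 122.8 CPM (ratio 6.52, 4.57 to 9.48).

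Il7r (chr15:9505788-9530176), the interleukin 7 receptor alpha chain, ran from 0 to 9 counts with a median of 2 and was counted in 80% of the wells (69.9 to 87.9) and 1.11% of the Cd79 wells. The level was 1121.2 CPM against 141.2 CPM, a ratio of 7.94 (5.75 to 11.2). Here the plates overlapped: the lowest T cell plate, plate 8, had 512.4 CPM, and the highest non-T plate, plate 4, had 546.1 CPM. Plate 8 also held most of the wells with NK markers (described further on), which had no Il7r count. Their part in the overlap was not tested. Within each of the 6 plates the T cells were still higher, by 0.97 to 4.48 on the log2 scale.

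Klf2 (chr8:72319033-72321656), a factor of quiescence and trafficking, ran from 0 to 5 counts and was found in 58.8% of the wells, with 455.3 CPM against 113.6 CPM (ratio 4.01, 2.68 to 6.03). S1pr1, the receptor for exit from lymph nodes and a known target of KLF2, was closer to the non-T level, with a ratio of 1.68 (1.12 to 2.52). Ccr7, the receptor for entry into lymph nodes, had a ratio of 2.10 (1.39 to 3.18), and 40% of the Cd79 wells held it against 43.5% of the T cells. On plate 6 S1pr1 was lower in the T cells (152.8 CPM against 227.4 CPM), as was Ccr7 on plate 5 (116.04 CPM against 136.7 CPM). Each was higher on the other plates compared. Klf2 and S1pr1 shared 25 wells, and S1pr1 was found in 50% of the wells with Klf2 and 48.6% of those without. Foxo1, a regulator of Klf2 and Il7r, stood at 247.4 CPM against 273.2 CPM, and Bach2, a repressor of effector genes also used by B cells, at 189.5 CPM against 395.9 CPM.

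**Figure D1:**
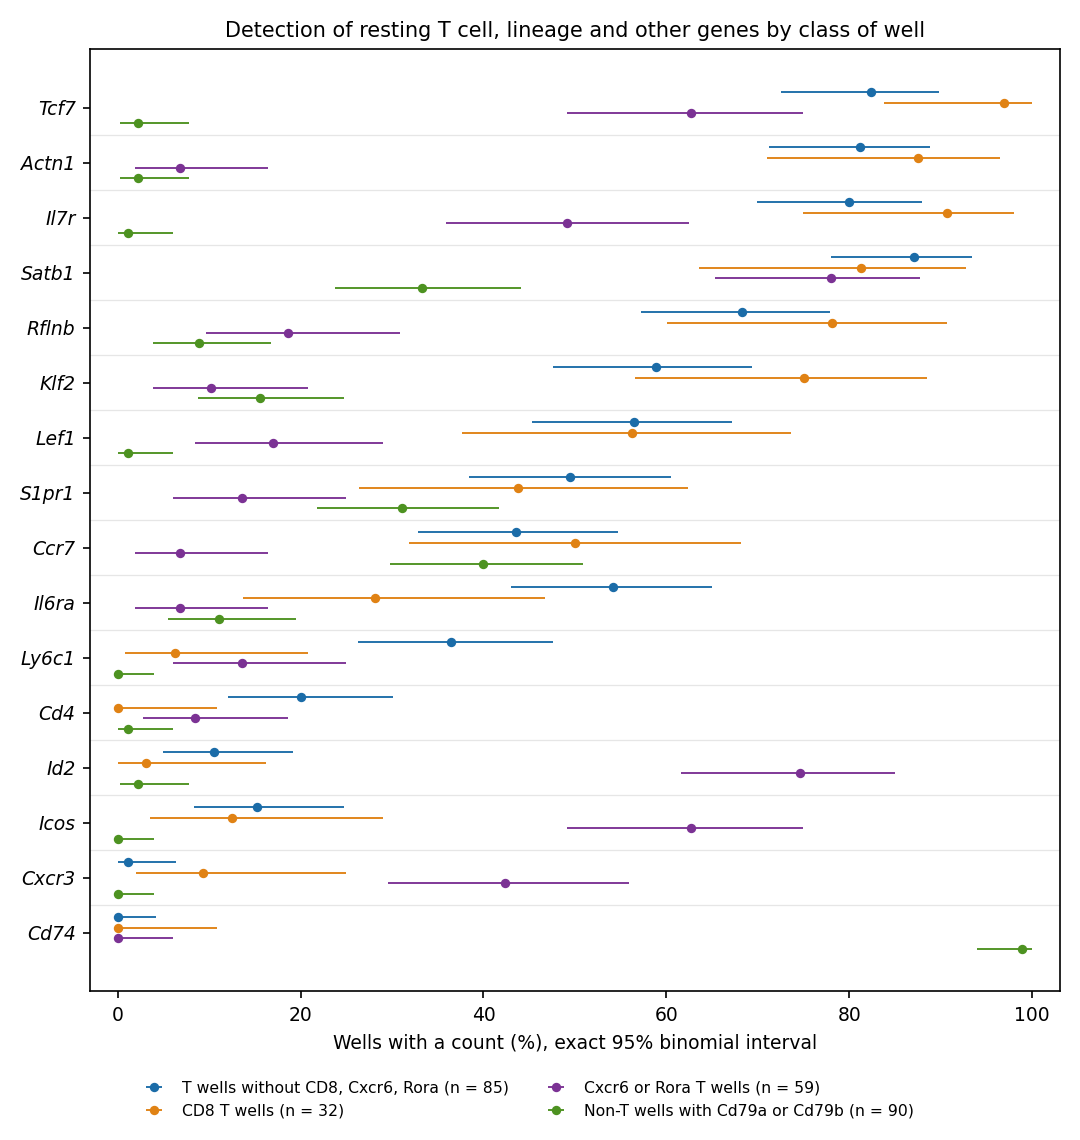
Share of wells with a count of each gene (horizontal axis, percent, with exact 95% binomial intervals for counting error) in 4 classes of wells (colours). Tcf7 was counted in 82.4% of the 85 T wells without CD8, Cxcr6 or Rora and in 2.22% of the Cd79 wells, and Cxcr3 in 1.18% against 42.4% of the Cxcr6 or Rora T wells.

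The antigen receptor list, without the genes of the rule, had 9 of 22 genes in the comparison, of which 8 were at least 2-fold higher and none lower, with a median log2 difference of 1.82. Cd247, the CD3 zeta chain, had a ratio of 4.45 (2.82 to 7.21) and was counted in 46 wells. Cd28, the costimulatory receptor, had a ratio of 3.66 (2.34 to 5.85). The adaptor gene Fyb stood at 731.7 CPM against 220.98 CPM. Ptpn22, a phosphatase that restrains receptor signalling, was the exception at 100.01 CPM against 55.2 CPM, a log2 difference of 0.84.

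Among cytokine receptor and signal genes, 4 of 8 were at least 2-fold higher and none lower. Il6ra (chr3:89864059-89913196), the interleukin 6 receptor alpha chain, ran from 0 to 8 counts a well with a median of 1 and was counted in 46 of the 85. It stood at 373.7 CPM against 67.5 CPM (ratio 5.53, 3.39 to 9.38), and its plates did not overlap (305.6 to 488.1 CPM against 45.5 to 102.2 CPM). Stat5b, which carries the interleukin 7 signal, stood at 152.6 CPM against 52.2 CPM. Jak1, a kinase shared by many of these receptors, stood at 1042.2 CPM against 610.8 CPM.

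Of 11 T lineage factors compared, 4 were at least 2-fold higher, 1 was at least 2-fold lower and the other 6 were within 2-fold. Bcl11b, required for T cell commitment, stood at 368.5 CPM against 61.4 CPM (ratio 6.00, 3.61 to 10.4). Satb1, a chromatin organiser, was counted in 87.1% of the wells and stood at 1002.7 CPM against 328.4 CPM. Id3, an inhibitor of E proteins, was the gene on the lower side, at 31.6 CPM against 122.8 CPM. Of 8 Gimap genes, which encode GTPases of lymphocyte survival, 6 were compared and 3 were at least 2-fold higher, led by Gimap3 with a ratio of 4.37 (2.62 to 7.69). Of the quiescence genes, 5 of 11 were at least 2-fold higher, among them Vsir, which encodes the checkpoint receptor VISTA, with a ratio of 4.03 (2.34 to 7.18).

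The 12 largest ratios with the same direction on all 6 plates included Actn1, Il7r, Lef1, Tcf7 and Rflnb. Ly6c1, which encodes a GPI-anchored surface protein, led them with 415.8 CPM against 30.7 CPM, a ratio of 13.5 (6.99 to 29.3). Its counts were uneven: 54 wells held none, 12 held 1, and 9 held 4 or more, up to 7. Ly6c1 has a near-identical neighbour, Ly6c2, and the division of reads between them is uncertain. Vipr1, a receptor for vasoactive intestinal peptide, was counted in 25 wells (ratio 8.003, 3.25 to 23.6), St8sia6, a sialyltransferase, in 23, and Tbc1d4, a Rab GTPase-activating protein, in 24. Without plate 8 the log2 difference of Ly6c1 was 4.54 in place of 3.72 and that of Kif22, a kinesin motor gene, 3.94 in place of 3.07. Without plate 7 that of Vipr1 was 4.27 in place of 2.93, and without plate 4 that of St8sia6 was 3.49 in place of 2.82.

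**Figure D2:**
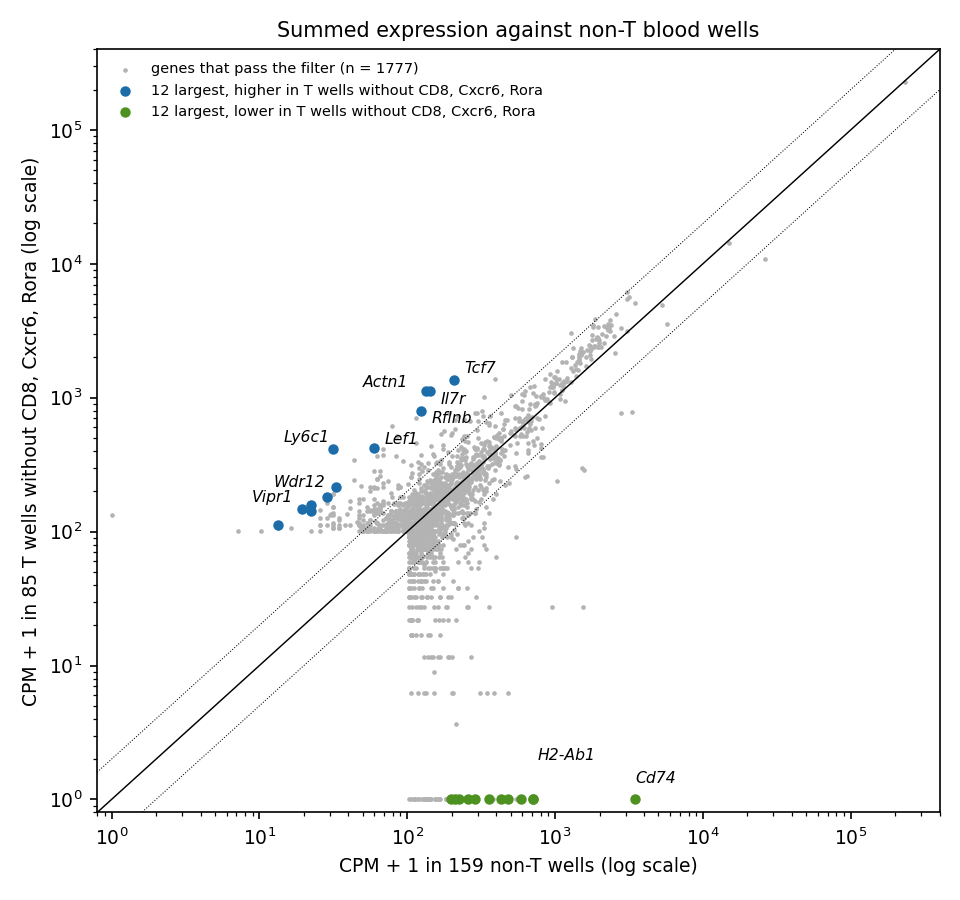
Each point is a gene: its level summed over the 85 T wells without CD8, Cxcr6 or Rora (vertical, CPM + 1, log scale) against the non-T wells (horizontal, CPM + 1, log scale), with dotted lines at 2-fold. The 12 genes in green on the lower side all had 0 counts in the T cells, and Tcf7 stood at 1363.3 CPM against 205.6 CPM.

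On the lower side the 12 named genes had 0 counts in all 85 wells. Cd74, the chaperone of class II antigen presentation, held 1139.5 counts in 96 non-T wells. It was 221.5-fold lower in the T cells with 3 counts over the class taken as the floor, and at least 179.9-fold by the exact interval. H2-Ab1 and H2-Aa, chains of the class II molecule, were 44.9-fold and 44.5-fold lower with that floor. By the exact interval they were at least 36.2-fold and 35.9-fold lower. Of 20 B cell markers in the table, 18 had no count in the T cells and 15 of the 15 compared were lower. Since wells with Cd79a or Cd79b were kept out, these levels follow in part from the rule. The 19 monocyte markers summed to 447.4 CPM against 1739 CPM, and 9 of them had no count in the T cells. Of the neutrophil markers S100a8 and S100a9 had no count in the T cells, and the summed red cell and platelet lists held 0 and 1 counts.

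Effector and memory genes were sparse in these wells, and also in the CD8 wells. The list summed to 926.4 CPM in the T cells without CD8, 843.2 CPM in the CD8 wells and 2827 CPM in the non-T wells. The first sum keeps the 5 wells with NK markers (described further on), which held 78 of the 80 Ccl5 counts of the T cells. The list was not summed without them, so similar levels in the other T cells and the CD8 wells are not shown. Of 3 genes compared with the CD8 wells, 1 was at least 2-fold higher and 1 lower. Of 9 compared with the non-T wells, 6 were at least 2-fold lower and none higher, with a median log2 difference of −2.40. S100a6, a calcium-binding protein of activated and myeloid cells, had no count. Cd44, the adhesion receptor of memory cells, had 3 counts in 3 wells, and Ahnak, a large scaffold protein, had 63.2 CPM against 395.9 CPM. Without plate 7 the median of the effector list was −1.37, and against the Cd79 wells alone it was −0.02.

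Ribosomal protein genes made up much of the RNA. Their summed level was 175894 CPM in the T cells against 125543 CPM in the non-T wells, with a median log2 difference of 0.44 over the 80 compared, of which 1 was past 2-fold. Against the CD8 wells the median was −0.19. The ribosomal RNA precursor transcript Rn45s made up 21.4% of a member well's counts at the median, and 19.1% of a non-T well's, but 22.9% and 23.3% of the summed counts from which CPM were made.

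The wells were not uniform, and 5 of the 85 stood apart. Of 5 NK cell markers (Ncr1, Klrb1c, Klra8, Klre1, Tyrobp), 80 wells held none, none held exactly 1, and 5 held from 2 to 5. These 5 wells lay on plates 1 and 2 (1 each) and 8 (3), and had 1030.5 to 2408 counts. They had between them no count of Tcf7, Actn1 or Il7r and 1 of Lef1, and they held 78 of the 80 counts of Ccl5, a chemokine of cytotoxic cells. In each, Trbc2 was among the T genes that admitted it, with 1 or 2 counts, beside a second gene out of Lck, Trac and Lat. None of the 5 held a count of Cd3d, Cd3e or Cd3g, and all 5 stay in the sums given for the T cells. Over all 85 wells the 15 NK markers summed to 788.7 CPM, against 2041 CPM in the non-T, 521.5 CPM in the CD8 and 1159.1 CPM in the Cxcr6 or Rora wells. Whether the 5 wells hold NK cells was not tested. The constant chain of the delta receptor, Trdc, was counted in 3 of the 5 and in 4 of the other 80. With these wells left out, a choice made after seeing the data, the NK list's median against non-T wells was −7.35 in place of −1.91 and the effector list's −3.25 in place of −2.40.

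The other 80 wells looked more alike. Of the 4 genes Tcf7, Actn1, Lef1 and Il7r, 34 of the 80 held all, 33 held 3, 7 held 2, 5 held 1 and 1 held none. Of the 5 wells with NK markers, 4 held none of the 4 genes and 1 held 1. Over all 85, wells with 3 or 4 had a median of 2178 counts and wells with fewer 1992 counts. The same criterion was met by 30 of 32 CD8 wells, by 9 of 59 T wells with Cxcr6 or Rora and by 7 of the non-T wells.

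**Figure D3:**
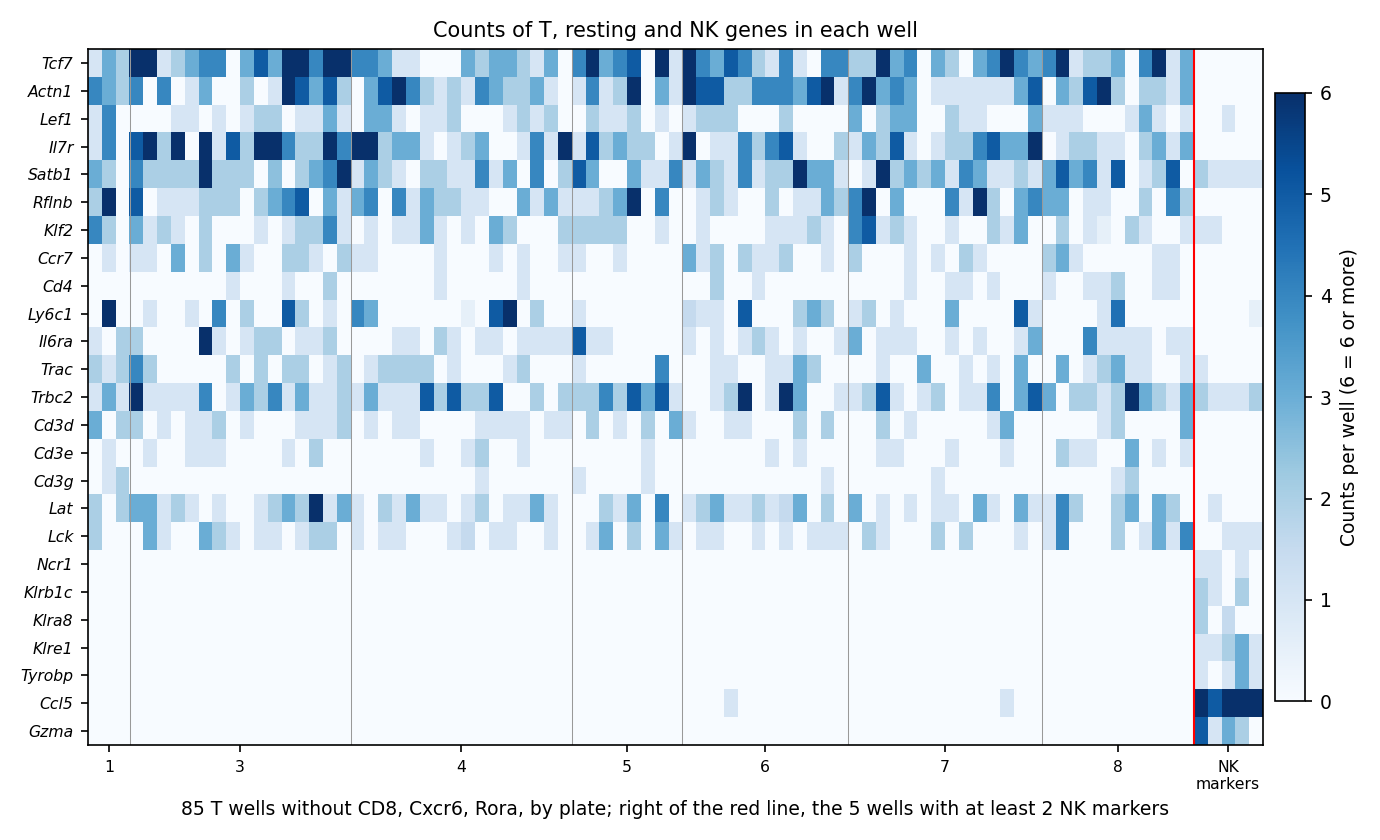
Counts per well (colour, capped at 6) of resting, antigen receptor and NK genes (rows) in each of the 85 wells (columns, ordered by plate, with the 5 wells that held at least 2 NK markers right of the red line). The 5 wells had no count of Tcf7, Actn1 or Il7r, and held 78 of 80 Ccl5 counts.

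Helper lineage genes were detected in a minority of the wells. Cd4 (chr6:124864692-124888221), the helper coreceptor, was counted in 17 of the 85, with 1 count in 14 wells and 2 in 3, and in 1.11% of the Cd79 wells. With Zbtb7b, the factor of the helper lineage, and Cd40lg, its ligand for B cell help, 26 wells held at least 1 of the 3. Of the T wells with Cxcr6 or Rora, 14 of 59 did, and of the non-T wells 24. None of the 32 CD8 wells did, which allows a share of wells with such a count of up to 9.38% (3 counts of the total) and does not limit the share of cells that express these genes. Tcf7 was counted in 82.4% of the wells with Cd4 and in 82.4% of those without, Actn1 in 88.2% and 79.4%, Il6ra in 64.7% and 51.5%, and Ly6c1 in 35.3% and 36.8%. With 17 wells holding Cd4, these shares are imprecise. Foxp3, the factor of regulatory T cells, had 1 count in all, and Il2ra none.

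Against the 32 CD8 wells, the resting genes were at similar levels, and the named differences included the coreceptor gene Cd4, the surface gene Ly6c1 and the receptor gene Il6ra. Of 1542 genes, 6.55% were at least 2-fold higher in the T cells without CD8 and 3.76% at least 2-fold lower, 3.7% and 1.95% also in the same direction on each of the 3 plates. None of the 17 resting genes compared was past 2-fold, with a median log2 difference of 0.18 (all genes −0.01). The ratio was 1.11 (0.890 to 1.41) for Tcf7, 0.944 (0.745 to 1.20) for Actn1, 0.822 (0.655 to 1.03) for Il7r, and 1.001 (0.678 to 1.48) for Klf2. These intervals leave room for differences of up to about these bounds, so equal levels are not shown.

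Cd4 had 20 counts against none in the CD8 wells, 3.16-fold higher with 3 counts over the CD8 wells taken as the floor. The exact interval of its ratio starts at 2.34. Ly6c1 stood at 415.8 CPM against 55.5 CPM (ratio 7.496, 3.08 to 23.7), and was counted in 36.5% of wells against 6.25%. On plate 5 the T cells without CD8 had 58.02 CPM of it and on plate 4 they had 638.4 CPM. The CD8 wells held 5 counts of Ly6c1 in 2 wells, with 4 in the highest well. Without plate 1, which held 1 of the CD8 wells, the log2 difference of Ly6c1 was 5.003 in place of 2.88. Il6ra was also higher, at 373.7 CPM against 110.9 CPM (ratio 3.37, 1.73 to 7.33), on each of the 3 plates compared (305.6 to 368.6 CPM against 63.5 to 151.4 CPM).

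Rasgrp1, which links the antigen receptor to Ras, had 21 counts against 2 (ratio 4.98, 1.22 to 43.8), and Tbc1d4 had 27 against 2 (6.41, 1.61 to 55.6), with a log2 difference for Tbc1d4 of 2.63 that was 3.62 without plate 3. On the other side stood Runx3, the factor that maintains the CD8 lineage, 2.01-fold lower (1.05 to 3.84), and Ctsw, which encodes cathepsin W of cytotoxic cells, 2.76-fold lower (1.61 to 4.78). Cd7, a surface protein of T and NK cells, had 5 counts against 18, of which 1 CD8 well held 12 and another 4 wells the rest, and its log2 difference of −2.88 was −2.11 without plate 7 and −3.499 without plate 8. Epsti1, an interferon-responsive gene, was counted in 6 of 85 wells against 13 of 32. The CD8 wells were deeper. After thinning to 1500 counts, which left out 8 member wells and 1 CD8 well, the log2 difference was −0.97 in place of −2.26 for Irak1, a kinase of interleukin 1 signalling, 1.83 for Tbc1d4 and −2.09 for Cd7.

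**Figure D4:**
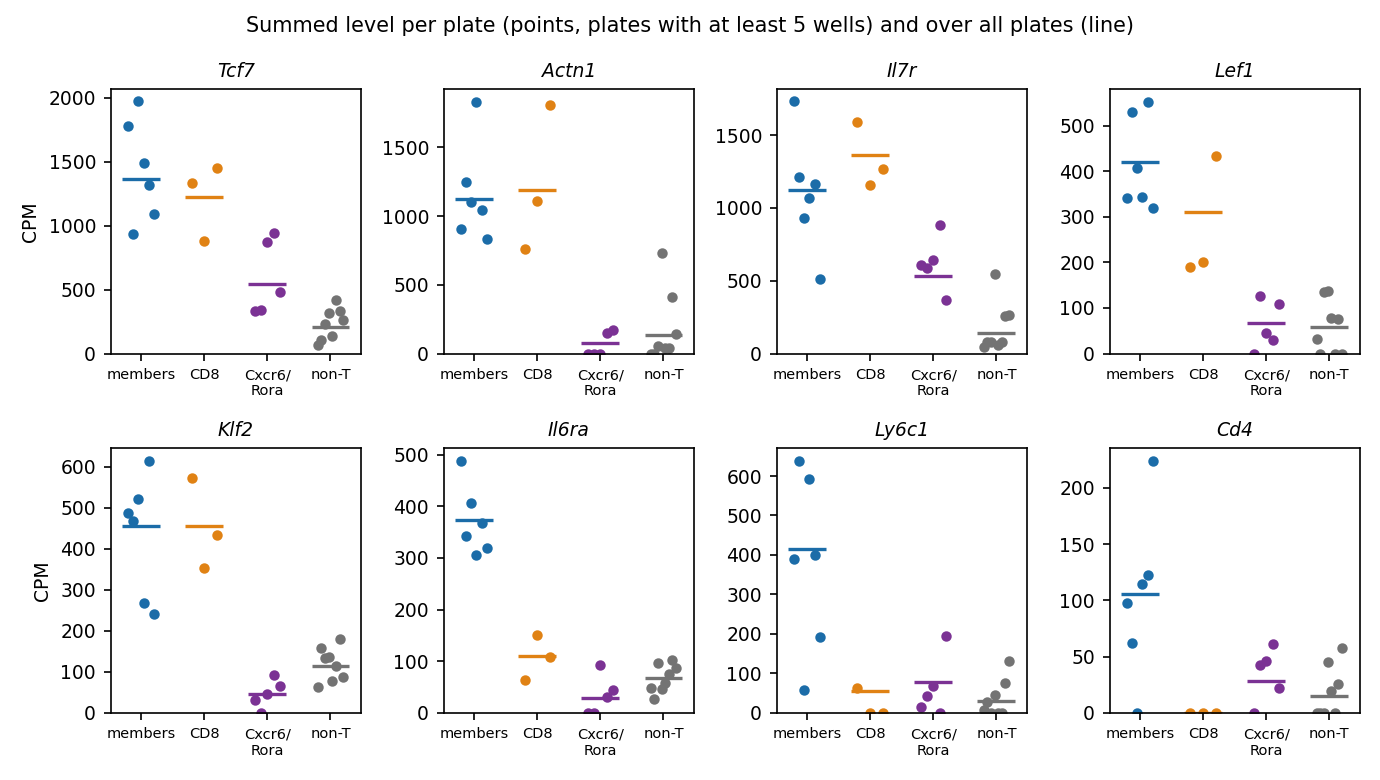
Level of 8 genes (CPM, linear axis from 0) in T wells without CD8, Cxcr6 or Rora (members), CD8 T wells, T wells with Cxcr6 or Rora, and non-T wells. Points are plates with at least 5 wells of the class, and lines are the level over all plates. Il6ra lay between 305.6 and 488.1 CPM on the member plates and between 63.5 and 151.4 CPM on the CD8 plates.

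Against the 59 T wells with Cxcr6 or Rora, the differences were wider. Recirculation genes and Actn1 were higher in the T cells without these genes, and effector genes, Gata3, Icos and the class I gene H2-Q7 were lower. Of 1712 genes, 9.4% were at least 2-fold higher and 12.9% at least 2-fold lower, 6.72% and 8.41% also in the same direction on each of the 3 plates. Of the 17 resting genes compared 11 were at least 2-fold higher and none lower, with a median log2 difference of 1.47 (all genes 0.02).

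Actn1 was counted in 69 of 85 wells against 4 of 59, with a ratio of 15.3 (8.77 to 29.3). Klf2 stood at 455.3 CPM against 45.01 CPM (ratio 10.1, 4.88 to 24.0). Without plate 8 the log2 difference of Actn1 was 4.92 in place of 3.92. Lef1 had a ratio of 6.24 (3.38 to 12.6) and Ccr7 of 6.43 (3.05 to 15.6). Tcf7 and Il7r differed less, with ratios of 2.50 (1.97 to 3.19) and 2.10 (1.64 to 2.70), and Satb1 had a ratio of 1.04 (0.836 to 1.28). Thinned to 1500 counts, Actn1 was counted in 64.9% of the T cells, 67.7% of the CD8 wells and 5.08% of the Cxcr6 or Rora wells.

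Il6ra again stood higher, at 373.7 CPM against 28.1 CPM (ratio 13.3, 5.43 to 42.2). Of the 9 cytokine receptor and signal genes compared, 3 were at least 2-fold higher and 2 lower. Il2rg, the gamma chain shared with the interleukin 7 receptor, stood at 147.4 CPM against 410.8 CPM. Il2ra, the interleukin 2 receptor alpha chain, did not reach 20 counts and so was not compared. It had 0 counts against 19 (6.77-fold lower with 3 counts over the class taken as the floor). St8sia6 had 30 counts against 1 (ratio 28.1, 4.67 to 1144.96), and without plate 8, which held that count, its log2 difference was 7.42 in place of 4.58.

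Of 11 effector and memory genes compared, 10 were at least 2-fold lower and none higher, with a median log2 difference of −2.60, which was −3.37 without the 5 wells with NK markers. Cxcr3, a chemokine receptor of inflamed tissue, had 1 count in the T cells against 37 in the Cxcr6 or Rora wells, a ratio of 39.6 (6.67 to 1604) toward the latter. Id2, an inhibitor of E proteins in effector and innate-like cells, was counted in 9 of 85 wells against 44 of 59, 6.30-fold lower in the T cells (3.80 to 11.03). Of 10 helper genes 3 were compared, with 1 at least 2-fold higher and 2 lower, each on all 3 plates. Gata3 and Icos, a factor and a costimulatory receptor of helper cells, were 6.04-fold (3.96 to 9.56) and 4.69-fold (2.79 to 8.32) lower. Cd4 was the higher one, with 20 counts against 5 (ratio 3.74, 1.36 to 12.8). Zbtb16, the factor of innate-like T cells, had 1 count against 24. Without plate 6 the log2 difference of Cxcr3 was −7.73 in place of −5.06, and without plate 7 that of Zbtb16 was −6.71 in place of −4.44. Bcl2a1b and Bcl2a1d, survival genes with near-identical sequences, had no count in the T cells and were counted in the same number of the other wells, 35 of 59, so their division is uncertain.

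The antigen receptor list did not follow the resting list here: 1 of 14 genes was at least 2-fold higher and 4 were lower, with a median log2 difference of −0.51. Cd247 was the higher one (ratio 2.62, 1.64 to 4.32). Ptpn22 was 3.88-fold lower (2.31 to 6.83) and Cd6, a surface regulator of the receptor, 2.39-fold lower (1.32 to 4.52). Surface proteins of the Ly6 family were split: Ly6c1 was higher in sum (415.8 CPM against 78.8 CPM) but not on plate 8 (192.1 CPM against 195.2 CPM), and Thy1, Ly6a, Ly6c2 and Ly6e were each at least 2-fold lower and lower on all 3 plates, Thy1 by 4.40-fold (2.79 to 6.91). The class I gene H2-Q7, 1 of a family of similar genes, was 3.58-fold lower (2.30 to 5.70), with B2m at 2479 CPM against 3275 CPM.

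**Figure D5:**
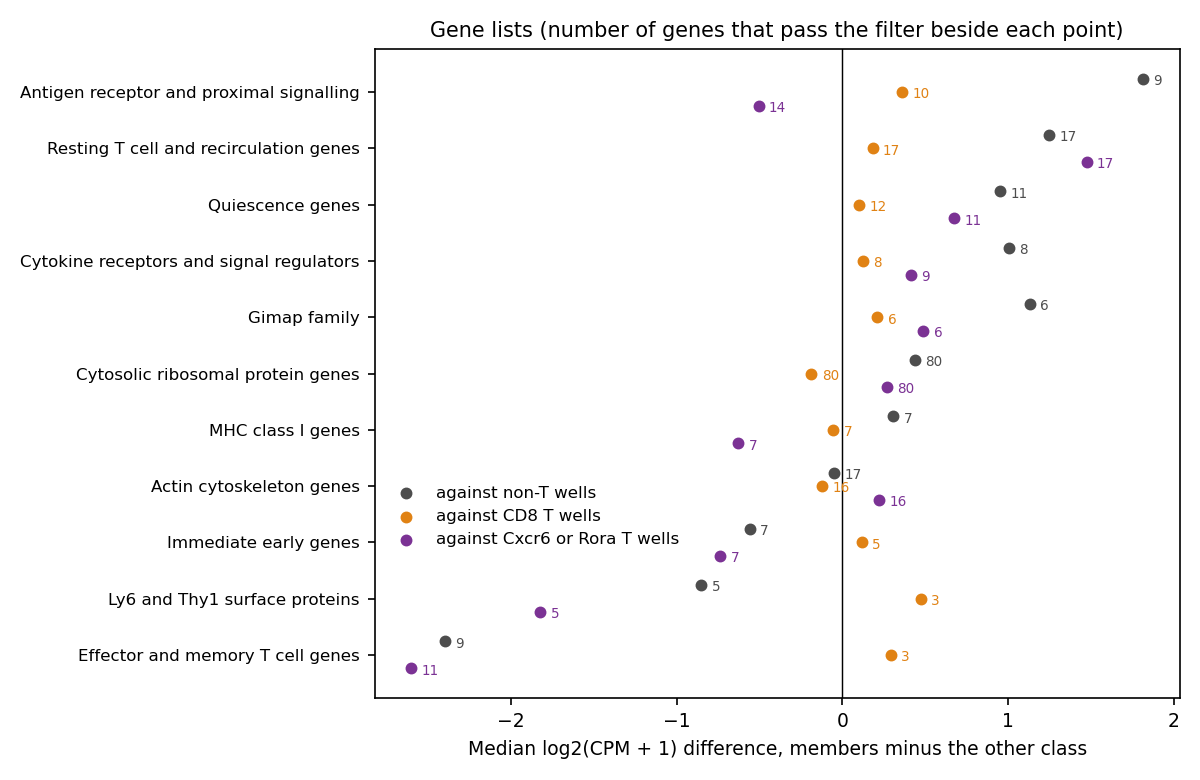
Median log2 difference of 11 gene lists (horizontal) in T wells without CD8, Cxcr6 or Rora (members) against each other class (colours), with the number of genes that passed the filter beside each point. The resting list stood at 1.25, 0.18 and 1.47, and the effector list at −2.40, 0.29 and −2.60, the middle value resting on 3 genes. All values keep the 5 wells with NK markers. Without them the effector list stood at −3.25 against non-T wells and −3.37 against Cxcr6 or Rora wells. Against CD8 wells it was not recomputed.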

How the data were processed

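The deposited PBMC table holds expected counts, which the authors made before deposit: molecule counts per gene and well, of which 5.13% of positive values in passing wells are not whole. Per the submitters' processing notes, bcl2fastq and STAR were used with the mouse genome mm10. For versions, the counter and its annotation, nothing was given in the sources used here. The table has 25051 genes, and totals over listed wells ran from 1013.98 to 7992 (median 2112). No 2 wells had identical values. Values were summed per class, scaled to CPM and compared as log2(CPM + 1), with Python 3.11.15, numpy 2.4.6, pandas 2.3.3 and scipy 1.17.1. No test was run, since the labels name no animal. Doublets were not called, and the 4 wells with T genes and Cd79a or Cd79b were left out. Thinning rounded values to whole counts. The comparison function was tested on simulated data. Named genes had the largest ratios with 1 direction on every plate compared, plus the lists. The members and lists were chosen with earlier results of these data known. Promoter windows come from RefSeq (GRCm38.p6; 270 of the 345 genes described had one), and gene coordinates from GENCODE on the same build. A few genes of the lists, though counted in them, are not reported here by name.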

Additional observations from a re-analysis of the deposited data

How the results depend on the processing

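Leaving out each plate in turn, 9.47 to 11.2% of genes were at least 2-fold higher and 13.5 to 16.6% lower against non-T wells, 6.03 to 8.34% and 2.67 to 4.24% against CD8 wells, and 8.91 to 10.6% and 11.99 to 15.04% against Cxcr6 or Rora wells. Against non-T wells (10.2% higher and 14.6% lower of 1777 genes), scaling without Rn45s and ribosomal protein genes gave 11.3% and 14.99% of 2776 genes. No filter gave 15.1% and 35.6% of 12072 genes (1817 and 4301), and at least 300 CPM with 60 counts gave 12.6% and 9.71% (57 and 44 genes). With Cd79 wells alone as comparator, 20.99% of 1949 genes were lower. Against them the median of the NK marker list turned from −1.91 to 6.80 (80 of the 85 wells held none of 5 NK markers). The cause of these shifts was not tested. Thinning to 1500 counts gave 9.62% lower against Cxcr6 or Rora wells, in place of 12.9%, and the cause was not tested. In these 8 of 94 cases the number of genes moved by over 1.5 times. Of 920 recomputed differences of named genes, none changed sign, and 23 left the interval of the reported ratio. Of the recomputed list medians, 26 moved by more than their SD over plates, and 1 of those past 1 on the log2 scale (the NK list, above) changed sign. Of 10 shares of wells thinned to 1500 counts, 6 left the reported interval, all downward, such as Klf2 at 41.6% and Lef1 at 42.9%. Genes with 0 counts in the T cells moved with the pseudocount: with 10 CPM added, Cd74 had a log2 difference of −8.45 in place of −11.77. At least 3 of the 7 T genes left 61 wells, and at least 500 detected genes 85. No paired analysis was possible because the labels name no animal and no test was run. At this depth a gene without a count in a well is not shown to be absent.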
